A study of Homo sapiens with 19 samples.

Results

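ERRα binding was examined at the genes of respiratory complex I and of the proteins that assemble it. These were the protein-coding genes of the hg19 annotation with symbols starting NDUFA, NDUFB, NDUFC, NDUFS, NDUFV or NDUFAF, which gave 48 genes of 20136 in all. They comprise 7 core subunits, 31 accessory subunits, 8 assembly factors with NDUFAF symbols, and the pair NDUFA4 and NDUFA4L2. The core subunits that mitochondrial DNA encodes do not fall under these symbols and were not analysed here. The accessory group counts NDUFC2-KCTD14, a readthrough gene whose starts lie at the NDUFC2 promoter, so that the pair shares each promoter peak it has.

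The data are ERRα ChIP-seq peak lists from SKBr3 and BT-474, both human breast cancer cell lines, and from 2 lines related to SKBr3. SKBr3 and BT-474 cells were starved of serum for 24 h and given EGF (100 μM, 90 min), heregulin (HRG, 100 μM, 90 min) or PBS as vehicle. The untreated parental line pSKBr3 was set against LRSKBr3, a lapatinib-resistant line kept in 2 μM lapatinib, so that resistance and the drug itself cannot be told apart. Each condition has 1 list, 8 in all. In SKBr3, pSKBr3 and LRSKBr3 a list pools 2 ChIP libraries against 1 input library, whereas in BT-474 it comes from a single ChIP library, with 1 vehicle input serving all 3 lists. With no spread between cultures in these lists, no difference between conditions was tested, and sequencing depth is unknown. The lists hold between 22539 (pSKBr3) and 41271 peaks (BT-474 on HRG).

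Complex I takes electrons from NADH, passes them along iron-sulfur clusters to ubiquinone and pumps protons across the inner mitochondrial membrane. Its N module oxidizes NADH, its Q module reduces the quinone, and its membrane arm carries the proton pumps. Accessory subunits surround the core, while assembly factors help to build the complex and do not stay in it. ERRα is an orphan nuclear receptor known for binding genes of mitochondrial energy metabolism, and its response element, the ERRE, contains the letters TCAAGGTCA.

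The sequences below are those words in the promoter peaks of complex I genes, shown because they are the letters that the receptor is known to recognize. A promoter peak is one with its centre within 1 kb of a transcription start, and where a gene had several, the one of highest score was taken. The 9-letter word was looked for anywhere in the peak, and its core AAGGTCA within 100 bp of the peak centre, both on either strand. Core words are shown where found in at least 3 lists. Those at NDUFAF7, NDUFS8 and the NDUFC2 pair, found in 1 list each, are not shown. Capitals mark the word, and 10 bases are given on each side, read 5′ to 3′ on the strand that carries it.
NDUFAF4 (chr6:97346118-97346146, minus strand): tgaaacaactTCAAGGTCAacttccttac
NDUFAF5 (chr20:13766029-13766057, minus strand): gggctgctggTCAAGGTCAgacggctagg
NDUFS6, first site (chr5:1801535-1801561, minus strand): cagccggcagAAGGTCAtcgccgccgc
NDUFS6, second site (chr5:1801633-1801659, plus strand): gaccggggagAAGGTCAcgcacactgg
NDUFS7 (chr19:1383725-1383751, minus strand): ccgaggcggaAAGGTCAtcggagtgcg
NDUFC1 (chr4:140216762-140216788, plus strand): tctgccggcgAAGGTCActgcaggacg
NDUFS1 (chr2:207024530-207024556, minus strand): ccgaaggttaAAGGTCAaagtactttt
The words of NDUFAF4 and NDUFAF5 lay inside the promoter peak in all 8 lists, though mostly away from its centre. The NDUFAF4 word was 187 to 375 bp from the centre, and within 100 bp of it in no list. The NDUFAF5 word was 27 to 324 bp from the centre, and within 100 bp of it in 3 lists. The NDUFAF4 word was 365 bp upstream of a start, outside the gene model, and the NDUFAF5 word 309 bp downstream in an intron. The NDUFS6 sites were in exon sequence 13 and 111 bp downstream of a start and lay near the peak centre in 6 and 5 lists. The NDUFS7 site, in exon UTR sequence, did so in 6 lists. The NDUFC1 site, in an intron, and the NDUFS1 site, 310 bp upstream, did so in 3 lists each.

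Nearly all complex I genes had an ERRα peak in SKBr3 cells, mostly at the promoter itself. A gene counts as called when a peak centre lies within 20 kb of one of its starts. On vehicle 42 of 48 genes (87.5%, Wilson 95% interval 75.3–94.1%) were called, against 54.2% of all protein-coding genes. On EGF 40 genes (83.3%, 70.4–91.3%) were called against 56.3%, and on HRG 46 genes (95.8%, 86.0–98.8%) against 66.4%. The members' shares stood above the background in each SKBr3 list. The intervals cover counting error only and treat genes as independent, which neighbouring genes are not.

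BT-474 cells had fewer complex I genes called than SKBr3 cells under each treatment. On vehicle 36 genes (75%, 61.2–85.1%) were called against 53.0% of all genes. On EGF 30 genes (62.5%, 48.4–74.8%) were called against 42.3%, and on HRG 35 genes (72.9%, 59.0–83.4%) against 55.4%. With every list cut to its 22539 strongest peaks, the BT-474 HRG list called 23 genes (47.9%) against 39.5% of all genes, nearer to the background. The background was nearly equal between the lines on vehicle and lower in BT-474 on both growth factors.

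The pSKBr3 list called 43 genes (89.6%, 77.8–95.5%) against 57.2%, and the LRSKBr3 list 45 genes (93.8%, 83.2–97.9%) against 70.0%. All 8 lists called 26 genes (54.2%, 40.3–67.4%) against 26.8% of all genes. Every one of the 48 genes was called in at least 1 list, against 84.8% of all genes, and every one also had a peak within 1 kb of a start in at least 1 list, against 51.8%.

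At the promoter the complex I genes stood further from the background. Within 1 kb of a start, a peak was called on vehicle in SKBr3 at 41 genes against 23.3% of all genes, on EGF at 38 genes against 22.3%, and on HRG at 44 genes against 35.7%. In BT-474 the numbers were 35 genes on vehicle against 19.4%, 26 genes on EGF against 11.4% and 32 genes on HRG against 16.8%. In pSKBr3 and LRSKBr3 they were 43 genes each, against 31.4% and 41.8%. All 8 lists held a promoter peak at 23 genes (47.9%, 34.5–61.7%), against 6.56% of all genes. The lowest share among the lists, 54.2% on EGF in BT-474, was thus above the highest background, 41.8% in LRSKBr3.

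Other genes of the mitochondrion were counted in the same way. Of 51 subunits of complexes II to V, a promoter peak was called in between 68.6% (BT-474 on HRG) and 84.3% (LRSKBr3), and in all 8 lists at 29 genes (56.9%, 43.3–69.5%). Of 78 mitochondrial ribosomal proteins, it was called in between 30.8% (BT-474 on EGF) and 89.7% (LRSKBr3), and in all 8 lists at 21 genes (26.9%, 18.3–37.7%). The interval of the complex I genes overlapped both of these. Of 11 assembly factors of complex I with other names, such as ACAD9 and ECSIT, 4 had a promoter peak in all 8 lists (36.4%, 15.2–64.6%).

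**Figure D1:**
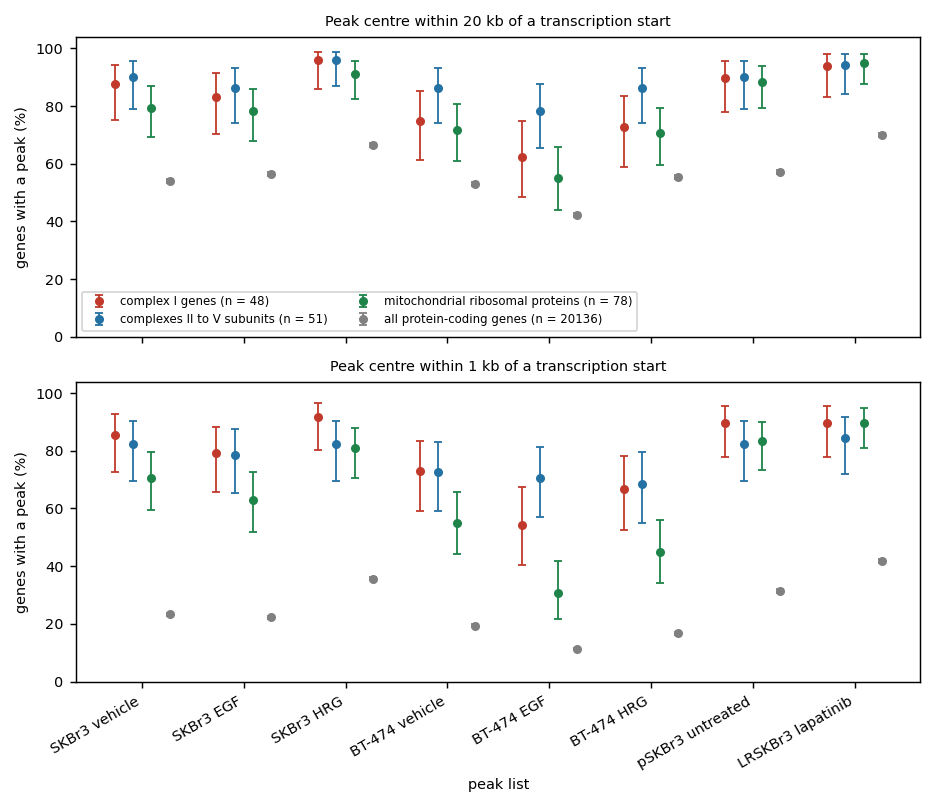
Share of genes (vertical axis, %) with a peak centre within 20 kb (top) and within 1 kb (bottom) of a transcription start in each of the 8 lists. Points are shares and bars Wilson 95% intervals for complex I genes (n = 48), subunits of complexes II to V (n = 51), mitochondrial ribosomal proteins (n = 78) and all protein-coding genes (n = 20136), and the complex I points lie above the grey points of all genes in every list and most clearly within 1 kb.

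The strength of a promoter peak was taken as the percentile of its score among all peaks of its list, because a MACS score depends on depth and cannot be set against that of another list. A percentile depends in turn on the number of peaks in the list, so that differences between lists are given beside those of all genes. Where a gene had several promoter peaks, that of highest score stands for it. The median over complex I genes was 84.6 on vehicle in SKBr3 (order-statistic 95% interval 75.8–95.1), 79.9 on EGF (61.1–91.4) and 89.3 on HRG (79.7–91.8). All genes with a promoter peak had medians of 62.5, 57.4 and 60.4 in these lists. The BT-474 vehicle list gave a complex I median of 80.7 (69.4–91.4), its EGF list 77.0 (67.0–87.8) and its HRG list 78.8 (58.7–89.1), against 55.4, 62.0 and 58.1 over all genes. The medians were highest in pSKBr3, at 94.9 (91.1–96.8) against 64.3, and in LRSKBr3, at 94.4 (91.2–96.5) against 64.0. In pSKBr3 40 of 43 complex I promoter peaks, and in LRSKBr3 39 of 43, were above the percentile of 75 (93.0% and 90.7%), against 35.8% and 36.3% over all genes. For subunits of complexes II to V the shares were 92.9% and 95.3%. On vehicle and EGF in SKBr3 these subunits had 90.5% and 85.0%, against 68.3% and 55.3% of complex I genes. Their median percentile was above that of complex I genes in every list, for example 95.9 against 84.6 on vehicle in SKBr3. On EGF in BT-474 it was 77.7 against 77.0. Medians of mitochondrial ribosomal proteins were below those of complex I genes in every list.

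**Figure D2:**
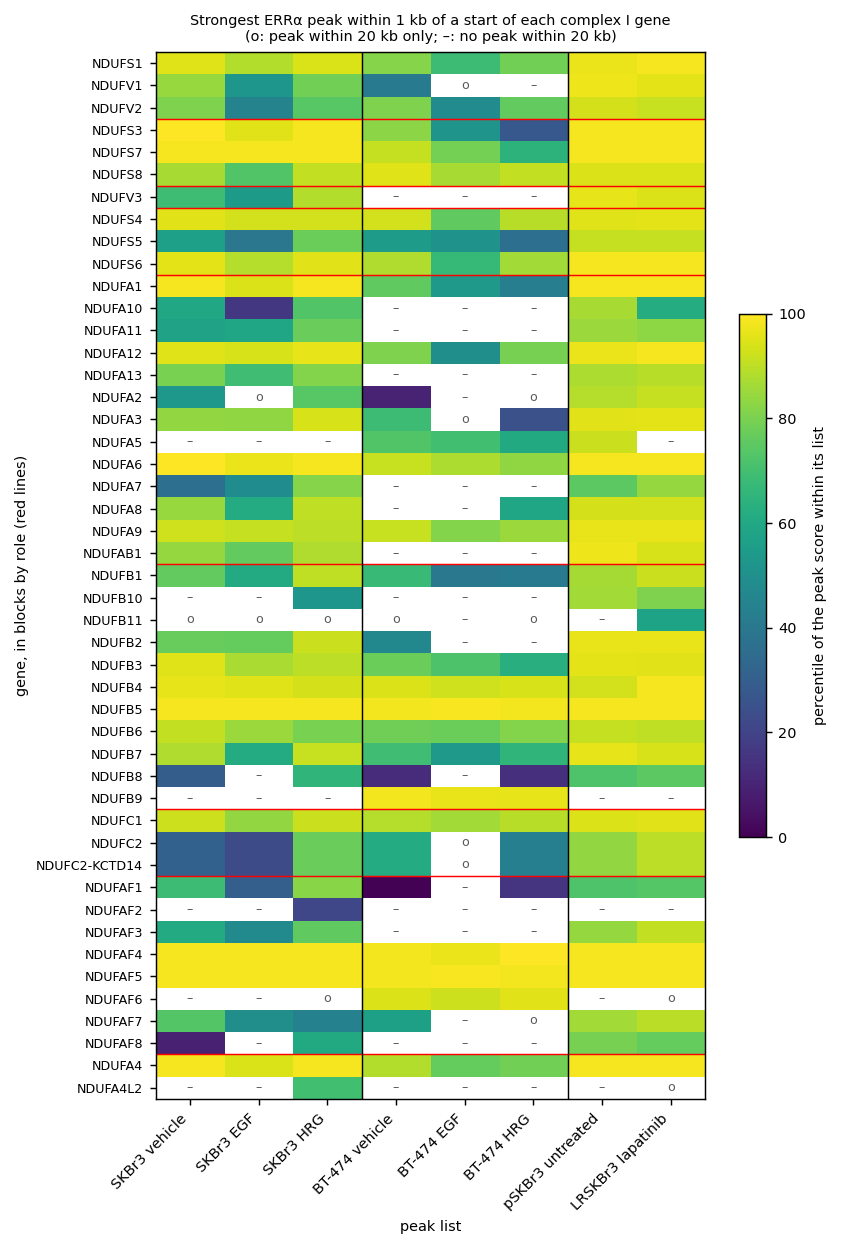
Percentile of the score of the strongest promoter peak within its own list (colour, 0 to 100) for the complex I genes reported by name (vertical axis, in blocks by role) in the 8 lists (horizontal axis). White cells have no promoter peak, a circle marks a peak within 20 kb only, and a dash no peak, so that NDUFAF4, NDUFAF5 and NDUFB5 show a bright row throughout while NDUFAF2 and NDUFA4L2 show 1 coloured cell each.

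NDUFV1, NDUFV2 and NDUFS1 form the N module core, in which NDUFV1 binds NADH and the flavin while the others hold iron-sulfur clusters. Percentiles of SKBr3 and BT-474 are given in the order vehicle, EGF and HRG from here on. For NDUFS1 they were 95.1, 88.5 and 94.2 in SKBr3 and 81.9, 68.7 and 78.8 in BT-474, with 96.9 in pSKBr3 and 98.7 in LRSKBr3. For NDUFV2 the values were 80.6, 44.9 and 74.1 in SKBr3 and 80.5, 48.3 and 76.1 in BT-474, with 93.4 in pSKBr3 and 91.6 in LRSKBr3. In both genes the EGF list was the lowest of its line. For NDUFV1 the percentiles read 84.6, 52.7 and 78.6 in SKBr3 and 97.3 and 95.8 in pSKBr3 and LRSKBr3. In BT-474 its promoter peak was called on vehicle (40.7) and in neither growth factor list. On EGF the one NDUFV1 peak in range lay 19132 bp from a start (percentile 8.28), and on HRG there was none.

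NDUFS3, NDUFS7 and NDUFS8 are core subunits of the Q module, of which NDUFS7 and NDUFS8 hold the last iron-sulfur clusters of the chain. All 3 had a promoter peak in all 8 lists. NDUFS8 had 87.0, 72.8 and 90.7 in SKBr3, 95, 86.9 and 90.7 in BT-474, 94.8 in pSKBr3 and 94.4 in LRSKBr3. Its lowest value was on EGF in SKBr3. NDUFS7 had the score of 3100, at which many strong peaks are tied, in all 5 lists of SKBr3 and its related lines (percentiles 98.6 to 98.8), and had 91.4, 79.2 and 64.8 in BT-474. NDUFS3 had 99.9, 95.7 and 98.6 in SKBr3, 82.5, 51.7 and 27.4 in BT-474, 98.8 in pSKBr3 and 98.7 in LRSKBr3. NDUFS3 and NDUFS7 were lower in every BT-474 list than in any list of the SKBr3-related lines. The NDUFS3 promoter peak also lay within 1 kb of a KBTBD4 start, and the gene it serves cannot be told apart.

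Among the accessory subunits NDUFB5, a membrane arm subunit, held the score of 3100 in all 8 lists, with its peak centre at most 90 bp from a start. That peak also lay within 1 kb of a start of MRPL47, a mitochondrial ribosomal protein gene. NDUFA6, which binds the acyl carrier protein of the complex, had percentiles of 99.9, 97.0 and 98.6 in SKBr3, 91.6, 87.8 and 83.3 in BT-474, 98.8 in pSKBr3 and 98.7 in LRSKBr3, from an intronic peak. Next to NDUFAF4, NDUFAF5, NDUFB5 and NDUFS7, whose medians over the lists were 98.6 each, NDUFA6 had the highest median, 97.8.

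At the other end stood NDUFAF2 (21.2, called at the promoter in 1 list), NDUFB8 (47.4), NDUFS5 (55.6), NDUFB11 (58.1, in 1 list) and the NDUFC2 pair (61.5), as medians over the lists with a promoter peak. NDUFB8, a membrane arm subunit, had 29.3 on vehicle and 65.4 on HRG in SKBr3, 12.6 on vehicle and 13.8 on HRG in BT-474, 72.6 in pSKBr3 and 74.7 in LRSKBr3, and no peak in range on EGF in either line. NDUFS5 had 56.5, 39.8 and 77.5 in SKBr3, 54.8, 50.9 and 36.4 in BT-474, 91.2 in pSKBr3 and 91.4 in LRSKBr3. NDUFC2 had 31, 22.9 and 77.1 in SKBr3, 61.5 on vehicle and 43.0 on HRG in BT-474, 83.9 in pSKBr3 and 90.1 in LRSKBr3. In SKBr3 these 3 genes were highest on HRG, and all 3 were higher still in pSKBr3 and LRSKBr3. On EGF in BT-474 the NDUFC2 pair had a peak in range, 18622 bp from a NDUFC2 start.

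Of the 8 assembly factors, NDUFAF4 and NDUFAF5 had promoter peaks among the strongest of every list. NDUFAF4 acts with NDUFAF3 in joining early assembly intermediates, and NDUFAF5 hydroxylates NDUFS7. NDUFAF4 held the score of 3100 in 6 lists, had 97.1 on EGF in BT-474, and had the highest score of its list, 3233.06, on HRG in BT-474. NDUFAF5 held 3100 in all 8 lists, with its peak also within 1 kb of an ESF1 start in at least 1 list. NDUFAF3 itself, whose peak lies within 1 kb of a DALRD3 start too, had 61.1, 47.4 and 75.4 in SKBr3, 84.3 in pSKBr3, 90.8 in LRSKBr3 and no peak within 20 kb in BT-474. The partners thus differed in every list.

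NDUFAF1, a chaperone for the membrane arm, had 68.6, 30.3 and 82.2 in SKBr3, 0.724 on vehicle and 15.0 on HRG in BT-474, no peak in range on EGF there, 72.5 in pSKBr3 and 73.7 in LRSKBr3. NDUFAF7, an arginine methyltransferase, had 73.4, 49.3 and 44.1 in SKBr3, 56.8 on vehicle in BT-474, 86.2 in pSKBr3 and 89.7 in LRSKBr3. In BT-474 it had a peak beyond 1 kb on HRG and none on EGF. NDUFAF8, the partner of NDUFAF5, had a promoter peak near the cutoff on vehicle in SKBr3 (score 58.17, percentile 9.16), none in range on EGF, and 60.6 on HRG. It had 79.3 in pSKBr3, 76.2 in LRSKBr3 and none in BT-474. NDUFAF2, a late-acting paralogue of NDUFA12, was called in 1 list, on HRG in SKBr3, at a score of 73.23 (percentile 21.2), with its peak shared with the ERCC8 promoter. The P value cutoff corresponds to a score of 50, and NDUFAF1 on vehicle in BT-474, at 50.65, was the member closest to it.

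NDUFA4 and NDUFA4L2 are paralogues, of which NDUFA4 is now counted with cytochrome c oxidase and NDUFA4L2 is known as a hypoxia-inducible gene. NDUFA4 had percentiles of 98.6, 94.2 and 98.6 in SKBr3, 88.4, 76.2 and 78.7 in BT-474, 98.8 in pSKBr3 and 98.7 in LRSKBr3. NDUFA4L2 had no peak in range on vehicle or EGF in SKBr3, in any BT-474 list or in pSKBr3. On HRG in SKBr3 it had 5 peaks within 20 kb, the strongest over its first kilobase (chr12:57632469-57635380, percentile 69.7, centre 550 bp downstream of a start). In LRSKBr3 it had 2, at chr12:57632453-57633613 (percentile 30.5) and chr12:57635701-57636807 (percentile 11.5), both beyond 1 kb from a start and at scores under 100.

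The promoter peaks centred close to the starts. Their median offset, positive in the direction of transcription, was between 3 bp (LRSKBr3) and 83.0 bp (BT-474 vehicle). In the SKBr3 vehicle list 34 of 41 centres were within 250 bp of a start (82.9%, against 54.1% over all genes with a promoter peak), with a median distance of 85.5 bp against 219 bp over all genes with a promoter peak. In the BT-474 vehicle list 26 of 35 were (74.3%, against 42.0%), with a median distance of 112 bp against 320 bp. Centres lay downstream of the start at 30 of 41 genes in SKBr3 on vehicle and 25 of 35 in BT-474 on vehicle (73.2% and 71.4%, against 43.2% and 47.0% of all genes with a promoter peak). In LRSKBr3 it was 22 of 43 (51.2%, against 45.5%). NDUFB4 lay far from its starts in each list, with offsets between 526 and 725 bp downstream over the 8 lists.

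**Figure D3:**
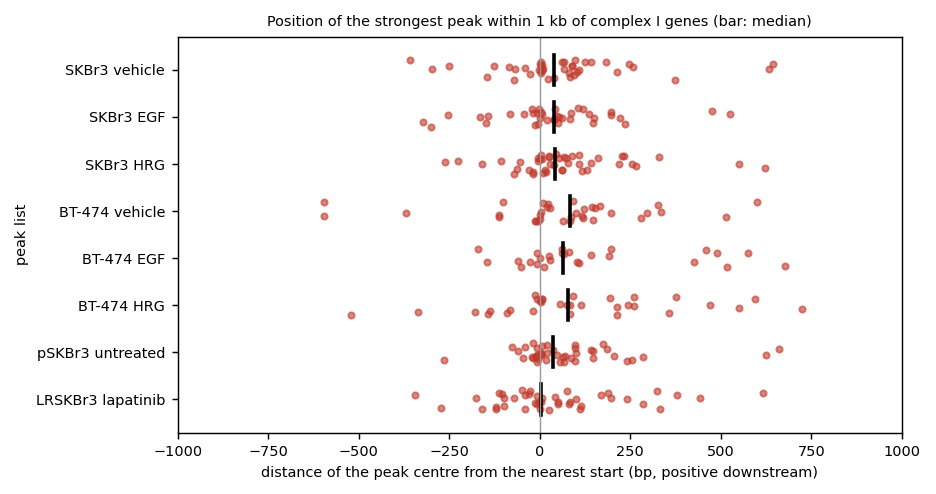
Distance of the centre of the strongest promoter peak from the nearest transcription start (horizontal axis, bp, positive downstream) for the complex I genes with such a peak in each list (vertical axis), each point a gene and each bar a median. The medians lie between 3 and 83.0 bp, and the points beyond 500 bp downstream in every list include NDUFB4.

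The median width of the members' promoter peaks was 1710 bp on vehicle in SKBr3 (interval 1526–1890 bp) against 1534.5 bp over all genes, 1488 bp in pSKBr3 (1391–1604 bp) against 1279 bp, and 2356 bp on vehicle in BT-474 (2045–2818 bp) against 1991 bp. In LRSKBr3 it was 1961 bp (1679–2135 bp) against 1660 bp. In the other 4 lists the members' median was also above that of all genes, and in those and on vehicle in SKBr3 the members' interval held the median of all genes. Width moves with depth and with the fragments of a library and is compared here within a list only. At 25 of the 48 genes the strongest promoter peak also had the start of another protein-coding gene within 1 kb, as at NDUFS6 with MRPL36, NDUFA1 with RNF113A and NDUFS1 with EEF1B2. The 25 include NDUFC2 and its readthrough gene NDUFC2-KCTD14, which had only each other. The 23 genes without such a neighbour had a promoter peak in between 65.2% (BT-474 on EGF) and 91.3% (SKBr3 on HRG and pSKBr3).

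EGF in SKBr3 was compared with vehicle to ask how binding at these genes differs on the growth factor. No complex I gene was called on EGF only, against 7.76% of all genes, but with peaks under a score of 100 left out 3 were (NDUFA7 and the NDUFC2 pair, 6.25% against 7.02% of all genes), and within 10 kb NDUFB11 was (2.08% against 6.92%). NDUFAF8 and NDUFB8 were called on vehicle only, 2 of 48 genes against 5.63%. NDUFAF8 and NDUFB8 were weak on vehicle, at percentiles of 9.16 and 29.3. With peaks under a score of 100 left out, or with lists of equal size, the genes called on vehicle only were NDUFA10 and NDUFAF1 instead. Of 38 genes with a promoter peak in both lists, 36 had a lower percentile on EGF (94.7%), against 69.8% of all genes with a promoter peak in both. The same was seen at 40 of 40 subunits of complexes II to V and at 43 of 48 mitochondrial ribosomal proteins (89.6%). The median difference over the complex I genes, EGF minus vehicle, was −6.81 points, against −4.47 over all genes. Of the 36 complex I genes, 4 (NDUFAF4, NDUFAF5, NDUFB5 and NDUFS7) held the score of 3100 in both lists, where a difference reflects only the number of ties, and among the other 34 genes 32 were lower (median −7.99). The widest gaps were those of NDUFA10, from 59.7 to 16.2, NDUFAF1, from 68.6 to 30.3, and NDUFV2, from 80.6 to 44.9. NDUFA7 and NDUFA11 were the 2 that stood higher on EGF.

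HRG in SKBr3 called NDUFA4L2, NDUFAF2, NDUFAF6 and NDUFB10 where vehicle did not, 4 of 48 genes against 16.5% of all genes. Of the genes not called on vehicle, 4 of 6 complex I genes were called on HRG, against 3331 of 9223 over all genes. With peaks under a score of 100 left out the number called on HRG only was 7, against 16.2% of all genes. Both there and with lists of equal size only NDUFA4L2 and NDUFB10 of the 4 were among them. No complex I gene was called on vehicle only, against 4.32%. NDUFB10, a membrane arm subunit, had 4 peaks in range on HRG, of which the promoter peak had a percentile of 52.6. In pSKBr3 and LRSKBr3 the NDUFB10 promoter peak had 86.0 and 80.6. NDUFAF6 had its HRG peak 13142 bp from a start. Peaks of any gene within 1 Mb also stood higher on HRG around NDUFA4L2 (68 against 29 on vehicle) and NDUFB10 (85 against 41), with little difference around NDUFAF2 (11 against 7) and NDUFAF6 (5 against 3), and the part of this in the calls was not tested. Of 41 genes with a promoter peak in both lists, 21 stood higher on HRG and 20 lower (median difference 1.02 points, against 3.98 over all genes, of which 61.7% stood higher). Without 6 genes tied at 3100 in both lists, 21 were higher and 14 lower (median 3.65). The widest gaps were at genes with low ranks on vehicle, NDUFAF8 (9.16 to 60.6), the NDUFC2 pair (31 to 77.1), NDUFA7 (36.4 to 82) and NDUFB8 (29.3 to 65.4). NDUFAF7 stood lower on HRG, at 44.1 against 73.4.

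EGF in BT-474 called no complex I gene that vehicle did not, against 3.04% of all genes. Called on vehicle only were NDUFA2, NDUFAF1, NDUFAF7, NDUFB11, NDUFB2 and NDUFB8, 6 of 48 genes (12.5%) against 13.7%. This share was near the background. Of 26 genes with a promoter peak in both lists, 24 had a lower percentile on EGF (92.3%, against 77.7% of all genes), with a median difference of −6.98 points against −6.42. The 2 others, NDUFAF5 and NDUFB5, were tied at 3100 in both lists. Of the subunits of complexes II to V 30 of 34 were lower, and of the mitochondrial ribosomal proteins 18 of 22. NDUFV2 (80.5 to 48.3), NDUFA12 (80.7 to 49.7) and NDUFS3 (82.5 to 51.7) had the widest gaps. NDUFA12 is an N module subunit at the contact with the Q module.

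HRG in BT-474 called NDUFA8, a membrane arm subunit, where vehicle did not, 1 of 48 genes against 8.21%. Vehicle alone called NDUFB2 and NDUFV1, 2 genes against 5.88%. Of 31 genes with a promoter peak in both lists 23 stood lower on HRG (74.2%, against 52.6% of all genes), with a median difference of −3.88 points against −0.727. The widest gaps were those of NDUFS3, from 82.5 to 27.4, NDUFA3, from 68.5 to 24.7, and NDUFA1, from 75.7 to 42.8. The EGF and HRG comparisons of a line share its vehicle list. When all lists were cut to equal size, vehicle alone called 12 genes in place of 2 (25%, against 7.57% of all genes at that size), and with peaks under a score of 100 left out it called 8, against 5.58%.

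LRSKBr3 cells called NDUFA4L2, NDUFAF6 and NDUFB11 where pSKBr3 did not, 3 of 48 genes against 14.7% of all genes. Of the genes not called in pSKBr3, 3 of 5 complex I genes were called in LRSKBr3, against 2954 of 8627 over all genes. NDUFA5 alone was called in pSKBr3 and not in LRSKBr3, 1 gene against 1.84%. NDUFB11, an X-linked membrane arm subunit, had its promoter peak in LRSKBr3 only of all lists (percentile 58.1), at a site shared with RBM10. It also had a peak 14522 bp downstream of a start in LRSKBr3, and 5 of the other lists held a peak overlapping it. Of 42 genes with a promoter peak in both lines 18 stood higher in LRSKBr3 and 24 lower (median difference −0.12 points, against 5.22 over all genes, of which 69.0% stood higher). In 9 of the 24 lower genes the score was 3100 in both lists, and among the other 33 genes 18 were higher and 15 lower (median 0.151). Complex I genes were already near the top of the pSKBr3 list, at a median of 95 over these genes. NDUFA10, from 86.8 to 61.9, had the widest gap.

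**Figure D4:**
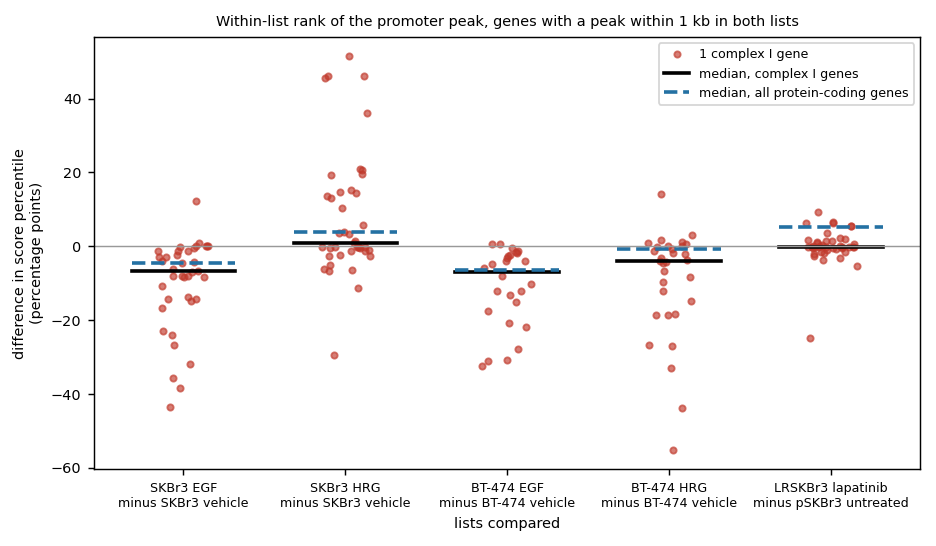
Difference in the score percentile of the promoter peak (vertical axis, percentage points, second list minus first) for each complex I gene with a promoter peak in both lists of the 5 comparisons. Black bars are medians over the complex I genes (−6.81, 1.02, −6.98, −3.88 and −0.12) and dashed blue bars medians over all protein-coding genes (−4.47, 3.98, −6.42, −0.727 and 5.22), and nearly all points of both EGF comparisons lie below 0.

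The lines were also set side by side. NDUFA10, NDUFA11, NDUFA13, NDUFA7, NDUFAB1, NDUFAF3 and NDUFV3 were called in all 5 lists of SKBr3 and its related lines and in no BT-474 list, 7 of 48 genes (14.6%) against 5.63% of all genes. These are accessory subunits of the N and Q modules and of the membrane arm, the acyl carrier protein NDUFAB1, and an assembly factor. Complex I genes were called in all 3 SKBr3 lists more often than all genes (83.3% against 46.1%). A larger share of them could therefore be called in SKBr3 and not in BT-474. NDUFAB1 had percentiles of 84.1, 75.8 and 88.1 in SKBr3, 97.6 in pSKBr3 and 94.0 in LRSKBr3. NDUFV3, of the N module, had 69.1, 54.6 and 88.4 in SKBr3, 96.2 in pSKBr3 and 94.7 in LRSKBr3. Such peaks were thus not only weak ones. BT-474 also held fewer peaks of any gene around most of these genes. Within 1 Mb of NDUFA13 there were 6, 3 and 6 peaks in BT-474 against 21 to 54 in the other lists, and around NDUFAF3 14, 7 and 15 against 36 to 74. Around NDUFV3 there were 23, 16 and 28 against 45 to 81, and around NDUFA11 17, 11 and 20 against 34 to 92. The gap was narrower around NDUFAB1, with 18, 15 and 19 against 22 to 41, and around NDUFA10 the ranges overlapped, with 17, 13 and 18 against 17 to 34. Around NDUFA7 they were 16, 6 and 14 against 19 to 88. The part of this in the calls was not tested. NDUFA13, a membrane arm subunit also known as GRIM-19, had 80, 69.2 and 81.4 in SKBr3, 87.8 in pSKBr3 and 89.1 in LRSKBr3. NDUFA11, of the membrane arm, had 57.7, 58.6 and 77.2 in SKBr3, 85 in pSKBr3 and 82.9 in LRSKBr3. NDUFA10, of the membrane arm too, had 59.7, 16.2 and 72.8 in SKBr3, 86.8 in pSKBr3 and 61.9 in LRSKBr3. In the last of these the EGF list was by far the lowest. NDUFA7, of the Q module, had 36.4, 48.8 and 82 in SKBr3, 74.9 in pSKBr3 and 84.2 in LRSKBr3, and was highest in LRSKBr3.

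Other accessory genes were called in part of the BT-474 lists. NDUFA8 had 84.4, 61.6 and 90.3 in SKBr3, 58.7 in BT-474 on HRG, 93.5 in pSKBr3 and 93 in LRSKBr3, and no peak in range on vehicle or EGF in BT-474. NDUFB2, a membrane arm subunit, had 76.8, 76.4 and 92.1 in SKBr3, 46.6 on vehicle in BT-474 and none in range on the growth factors there, 96.5 in pSKBr3 and 96.7 in LRSKBr3. NDUFA2, of the N module, had 53.5 on vehicle and 74.1 on HRG in SKBr3, 10 on vehicle in BT-474, 89 in pSKBr3 and 91.2 in LRSKBr3. Its peaks on EGF in SKBr3 and on HRG in BT-474 lay beyond 1 kb, and it had none in range on EGF in BT-474. All 3 genes were highest in pSKBr3 or LRSKBr3.

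NDUFB9, a membrane arm subunit on chromosome 8, was the reverse, 1 of 48 genes against 2.12% of all genes called in all 3 BT-474 lists and in none of the others. Its percentiles in BT-474 were 98.3, 96.7 and 96.1. The NDUFB9 promoter peak also lay within 1 kb of a TATDN1 start in at least 1 list. Peaks of any gene within 1 Mb of NDUFB9 numbered 0, 1 and 2 in the SKBr3 lists, 2 in pSKBr3 and 14 in LRSKBr3, but 58, 46 and 74 in the BT-474 lists. NDUFAF6, on the same chromosome, had promoter peaks in BT-474 only, at 94.6, 92.2 and 95.5, with 14, 9 and 13 peaks within 20 kb of its many starts. Within 1 Mb of it there were 3, 2 and 5 peaks in SKBr3, 2 in pSKBr3 and 8 in LRSKBr3, against 40, 24 and 44 in BT-474. NDUFA5, a Q module subunit on chromosome 7, had 73.0, 69.7 and 60.7 in BT-474, 92.1 in pSKBr3 and no peak in range in SKBr3 or LRSKBr3. Within 1 Mb of it the SKBr3 lists held 9, 6 and 8 peaks, pSKBr3 10, LRSKBr3 2 and BT-474 36, 39 and 47. Few peaks of any gene were called around these 3 genes where they were not called themselves, and what part copy number or depth has in that was not tested.

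The exact ERRE was rare at complex I promoters. Words were counted over every distinct peak within 1 kb of a member's start, so that a peak shared by 2 members counts once and a gene may add more than 1. Within 100 bp of the peak centre the 9-letter word was in no members' promoter peak on vehicle in SKBr3 (0 of 42 peaks, interval 0–8.38%), and in at most 2 of 34 peaks in any list (BT-474 on HRG, 5.88%, 1.63–19.1%). Over the promoter peaks of all genes the share was between 2.14% (SKBr3 on HRG) and 5.22% (BT-474 on EGF). Anywhere in the peak it was found at NDUFAF4 and NDUFAF5 in every list. Over all members it was in 3 peaks of 42 on vehicle in SKBr3 (7.14%, 2.46–19%) against 9.91% over all genes, and 3 of 27 on EGF in BT-474 (11.1%, 3.85–28.1%) against 13.9%. The words of NDUFAF4 and NDUFAF5 are printed above. NDUFAF4 and NDUFAF5, which carry it mostly beyond 100 bp from the centre, had peaks among the strongest of each list, while NDUFB5, without it, did as well. The members' intervals held the share of all genes in all 8 lists.

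The core AAGGTCA lay within 100 bp of the centre of 3 of 42 members' peaks on vehicle in SKBr3 (7.14%, 2.46–19%) against 17.0% over all genes. It lay there in 7 of 35 peaks on vehicle in BT-474 (20%, 10.0–35.9%) against 17.2%, and in 2 of 44 peaks in pSKBr3 (4.55%, 1.26–15.1%) against 12.5%. The bases around the members' peak centres were GC-rich, with a median of 64.7% on vehicle in SKBr3 against 55.7% over all promoter peaks, and 59.2% against 50.7% on vehicle in BT-474. The gap was smaller in LRSKBr3, at 63.4% against 60.2%, and smallest in pSKBr3, at 64.2% against 63.2%. The part of base composition in the word shares was not tested. In RefSeq promoters (GRCh38.p14, 250 bases before to 50 after a start), 41 of the 48 genes matched. Of these none held the 9-letter word, against 0.24% of 15843 promoters, and NDUFA5, NDUFB4, NDUFS6 and NDUFS7 held the core (9.76%, 3.86–22.5%, against 3.13%). A match of letters is a description and does not show a bound site.

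**Figure D5:**
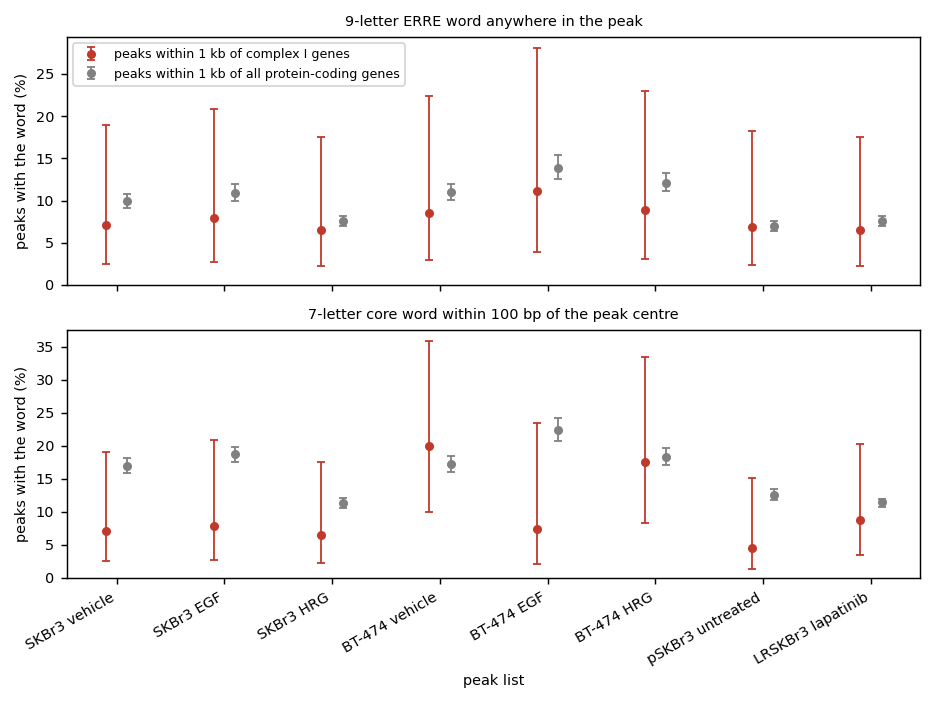
Share of promoter peaks (vertical axis, %) holding the 9-letter ERRE word anywhere in the peak (top) and its 7-letter core within 100 bp of the centre (bottom) in each list, for complex I genes (red) and all protein-coding genes (grey), with Wilson 95% intervals. The red intervals are wide, at 3 peaks with the 9-letter word in each list, and hold the grey points in all 8 lists in the top panel.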

How the data were processed

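Chromatin from SKBr3, BT-474, pSKBr3 and LRSKBr3 cells was immunoprecipitated with an ERRα antibody, giving 13 ChIP and 6 input libraries. According to the submitters' processing notes and the study's methods, the authors aligned reads to hg19 with BWA 0.5.9, used SAMtools 0.1.18 and made the peak lists with MACS, whose P value limit was 1e-05. A header line in the 3 SKBr3 lists names FindPeaks instead, while their peak names are those of MACS. The deposited value of each peak is a score, −10 log10 of its P value, in which many strong peaks share 3100. The lists hold no read counts, so depth and the spread between libraries are unknown, and intervals cover counting error only.

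Transcription starts were those of all transcripts of protein-coding genes in GENCODE 44 lifted to GRCh37. Percentiles are ranks of scores within a list, with ties at their mean rank. The members and gene lists were chosen with earlier results of these data known. Values were given for core subunits, assembly factors, the NDUFA4 pair, genes whose calls differ between lists, the 5 highest and 5 lowest median percentiles and genes with an ERRE word; the words with a core in at least 3 lists, and genes with the widest gaps, were picked after their values were seen. Peak assignment and word search were tested on simulated data. Python 3.11.15, numpy 2.4.6, pandas 2.3.3, scipy 1.17.1 and pysam 0.24.0 were used. A member gene enters the counts and medians and is not reported by name here.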

Additional observations from a re-analysis of the deposited data

Results flagged for a closer look

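On HRG the complex I genes stood to vehicle in opposite directions in SKBr3 and BT-474. The number of genes with a peak within 20 kb differed from vehicle by 4 in SKBr3 and by −1 in BT-474, and the number with a promoter peak by 3 in SKBr3 and by −3 in BT-474. With all lists cut to 22539 peaks, vehicle and HRG gave 40 and 44 genes within 20 kb in SKBr3 and 34 and 23 in BT-474, and 39 and 43 promoter peaks against 32 and 23. The signs held and the BT-474 differences were larger. At that size the shares of all genes were 46.2% and 54.0% in SKBr3 and 42.9% and 39.5% in BT-474 within 20 kb, and 18.5% and 25.7% against 14.4% and 10.5% at the promoter, which differ in the same directions as the members. The median difference in score percentile was 1.02 points in SKBr3 and −3.88 points in BT-474, against 3.98 and −0.727 over all genes. Without genes tied at 3100 in both lists it was 3.65 and −4.35. Percentiles depend on the number of peaks in a list, and the HRG lists are the longer ones in both lines. With 1 list for each condition the difference between the lines was not tested. Over all genes the share with a promoter peak was 35.7% on HRG and 23.3% on vehicle in SKBr3, and 16.8% and 19.4% in BT-474. Within 20 kb it was 66.4% and 54.2% in SKBr3 and 55.4% and 53.0% in BT-474. In these uncut lists the background differed in the same directions as the members at the promoter and, in BT-474, in the opposite direction within 20 kb.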

How the results depend on the processing

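Of 194 values recomputed under another setting, 180 stayed within 1.5 times the count or inside the interval of the value reported, and 14 moved. Among the 180 were all counts of genes with a promoter peak (score of at least 100, 500 bp, gene 5′ ends in place of transcript starts, or lists cut to 22539 peaks each), and all median percentiles and widths (nearest peak in place of the strongest, the strongest within 20 kb for percentiles, or score of at least 100 for widths). The 26 genes called in all 8 lists numbered 20 at a score of at least 100, 24 at 10 kb and 19 with cut lists (all genes 18.7%, 18.7% and 21.4%). Cutting the lists took the genes called within 20 kb on HRG in BT-474 to 23 (47.9%, all genes 39.5%), and the genes called there on vehicle alone to 12, and a score of at least 100 took the latter to 8. The cause was not tested. That score gave 3 genes called on EGF alone in SKBr3 (NDUFA7 and the NDUFC2 pair, 6.25%, all genes 7.02%) and 7 on HRG alone (14.6%, all genes 16.2%), of which NDUFA4L2 and NDUFB10 were among the 4 reported. At 10 kb 1 gene, NDUFB11, was called on EGF alone in SKBr3. Calls that differ between lists thus depend on the threshold, and an equal count need not hold the same genes: of the 2 called on vehicle alone against EGF in SKBr3, 0 were shared at that score or with cut lists. The ERRE share within 50 bp of the centre was 0% on EGF in SKBr3 and on HRG in BT-474. With the 7-letter core it was 20% on vehicle in BT-474 and 8.7% in LRSKBr3. With 1 letter changed, a setting added after the data were seen, it was 22.9%, 18.5%, 13.6% and 15.2% on vehicle and EGF in BT-474, in pSKBr3 and in LRSKBr3. Leaving out NDUFC2-KCTD14, or genes with a neighbouring start, also chosen afterwards, moved no value beyond these limits. Leaving out 1 gene could not move a count of this size beyond them. No paired analysis was possible because the replicate libraries of a condition are pooled in 1 list, and for the same reason no replicate could be left out.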
